A study of Rattus norvegicus with 6 samples.

Results

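A set of 39 genes of blood vessel endothelium, pericytes and the retinal barrier was compared between the HCDDP group and the diabetic group of rats. The set was a list of gene symbols, and the rule uses no measured value, although the list was drawn up with earlier results of these data known. A probe row of its own was found for 33 of the 39 genes, and these 33 were tested among 18166 genes in all, without a filter on weak signals. Pecam1, Jam2, Eng, Ednra, Ednrb and Acta2 were not analysed here.

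The inner blood-retinal barrier is formed by endothelial cells that are sealed to each other by tight junctions, carry few vesicles and are wrapped by pericytes. Pericytes are recruited and kept by platelet-derived growth factor B, which endothelial cells release and pericytes sense, while angiopoietins and the Tie receptors set how stable the wall is. Endothelin and nitric oxide act in opposite ways on the tone of the vessel. Loss of pericytes, leakage of the barrier and adhesion of leukocytes to the wall are known features of diabetic retinopathy.

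The 6 arrays came from male SD rats that had been fed a high fat diet for 4 weeks and injected with streptozotocin at 30 mg/kg, so that all of them were diabetic. Streptozotocin destroys pancreatic beta cells, and together with the diet it served as a chemical model of type 2 diabetes. The 3 samples of the HCDDP group, whose label gives the treatment as Danshen, were from rats that got Compound Danshen Dripping Pill, a preparation of Danshen, notoginseng and borneol, for 12 weeks at a daily gavage dose of 0.4 g/kg/d. The 3 samples of the diabetic group were from rats given saline. All 6 samples are labelled as retina at 17 weeks of age, although the titles of the diabetic samples hold the word eye. In the methods the rats were 5 weeks old at the start, before the diet and the treatment, and these times together exceed the labelled age. The arrays are counted as separate samples of a group, and no source says in words that each held the RNA of a separate rat, so the p-values measure the spread between these samples, part of which may be technical.

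Values are log2 signals of Affymetrix Rat Gene 2.0 ST arrays, on which 1 unit is a doubling of the signal. To be called lower or higher, a gene needed a fold change over 1.5 and a limma p, before adjustment, under 0.05, which is the study's own threshold, and a p adjusted over all genes is given beside the calls. By this rule 2.28% of all genes tested were lower and 0.925% were higher in the HCDDP group. The arrays numbered 3 stood apart in both groups, with their 10th and 90th percentiles 4.48 and 4.45 log2 units apart against 4.92 to 5.19 on the other 4 arrays.

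The label of the tissue was checked against marker genes. Of 9 photoreceptor markers, 8 lay above the 90th percentile of all genes on every array. The same held for 5 of 5 lens markers, 5 of 6 skeletal muscle markers, 7 of 9 markers of corneal epithelium and of corneal and scleral fibroblasts, and 6 of 10 markers of the pigment epithelium and choroidal melanocytes. Krt12, a keratin of corneal epithelium, had a signal of 12.58 to 12.77 on the 6 arrays, and Ckm, the muscle creatine kinase, had 10.85 to 11.41. None of the 6 erythroid markers tested lay above that percentile on every array. Of the markers of Muller glia and astrocytes 3 of 9 did, of leukocytes and microglia 1 of 17 and of lymphatic endothelium 1 of 5. The RNA thus held strong signals of tissues outside the neural retina, and the vessels of the retina, the choroid, the muscle and the stroma cannot be told apart in these values. Nor can fewer cells of a type be told apart from less RNA per cell.

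**Figure D1:**
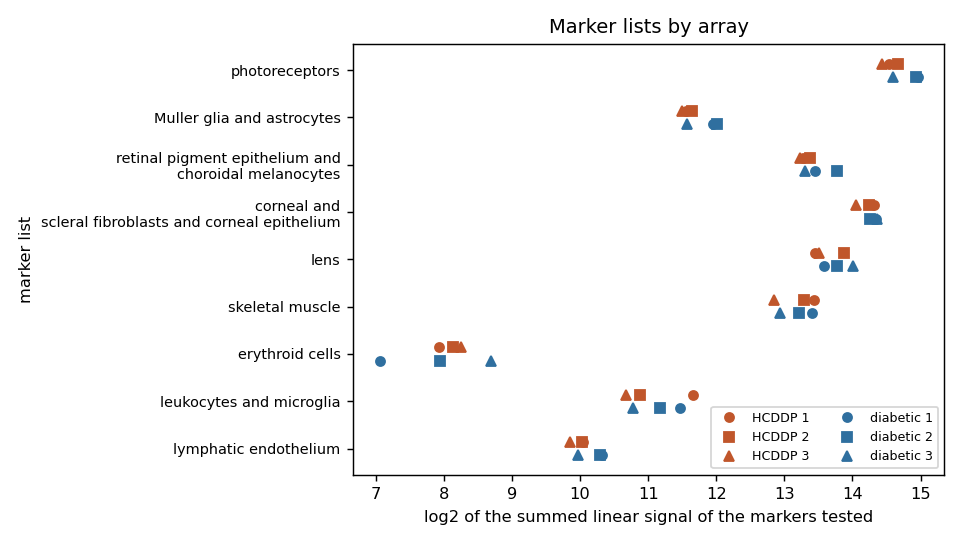
Summed signal of the markers of 9 cell types or tissues on each array, as the log2 of the summed linear signals (horizontal axis). Colours give the group and shapes the array number. Lens and skeletal muscle markers ran from 13.45 in HCDDP array 1 upwards and from 12.85 to 13.43, and the groups overlapped for both lists.

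Of the 33 genes, 2 were lower in the HCDDP group, Edn1 and Pdgfrb, and 0 were higher. The 2 genes were 6.06% of those tested, beside 2.28% of all genes. No member passed an adjusted p of 0.05 with limma, 3 had an unadjusted p under 0.05, or 9.09% beside 6.05% of all genes, and by the methods' t-test 0 members had an unadjusted p under 0.05. The median log2 difference of the 33 genes was −0.08, beside −0.01 over all genes, and 20 of the 33 had a lower mean in the HCDDP group, or 60.6% beside 51.6%. Above the median signal of all genes lay 24 of the 33. Tested on their own, genes above that median were lower in 3.66% and higher in 0.539%, and their median difference was shifted by −0.05 from that of all genes. The part of signal level in the members' differences was not tested. The standard error of a difference ran from 0.155 to 0.338, so that a 95% interval reached about 0.49 to each side at the median.

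**Figure D2:**
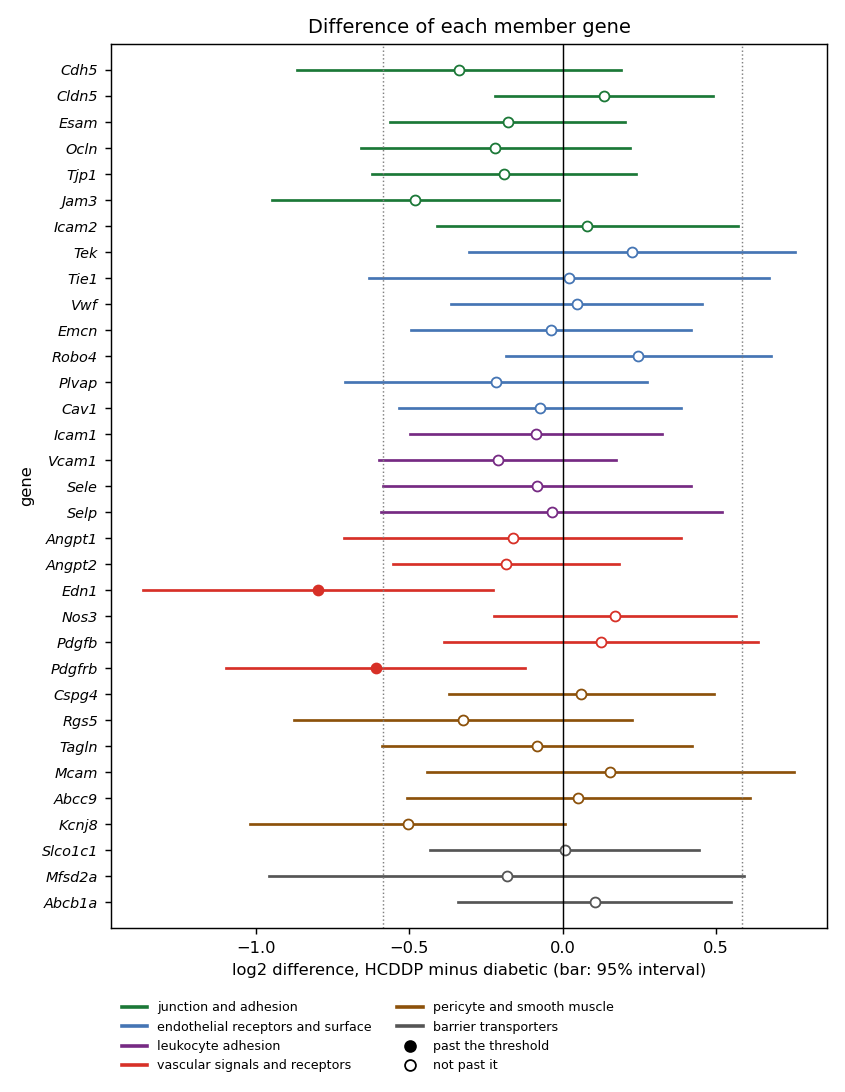
Log2 difference of each of the 33 genes, HCDDP minus diabetic (horizontal axis), with its 95% interval from limma as a bar and the role of the gene as colour. The dotted lines mark a fold change of 1.5, and the filled points are Edn1 at −0.80 and Pdgfrb at −0.61.

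Edn1, which encodes the vasoconstrictor peptide endothelin-1, was lower with HCDDP. The log2 signal of Edn1 was 6.11, 6.08 and 5.45 on the HCDDP arrays, in the order 1 to 3, and 6.48, 7.07 and 6.48 on the diabetic arrays. Every HCDDP array lay below every diabetic array, and HCDDP array 3 was the lowest and diabetic array 2 the highest of the 6. The mean was 5.88 ± 0.37 (SD, n = 3) with HCDDP against 6.68 ± 0.34 (SD, n = 3) without. The difference was −0.80 with a standard error of 0.25 and a 95% interval from −1.37 to −0.23, which is a 1.74-fold lower signal (adjusted p = 0.782 from limma). In the pairs of arrays with the same number, the HCDDP array was lower by 0.37, 0.99 and 1.03 log2 units. Leaving out HCDDP array 3 put the difference just below the fold change, at −0.58, and the methods' t-test gave an unadjusted p of 0.0527.

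The promoter window of Edn1 is shown because Edn1 had the largest difference of the 33 genes. The window holds the 250 bases before and the 50 bases from the annotated start on, from RefSeq on the rat genome build GRCr8, chr17:22666638-22666937, minus strand. In the human gene, a GATA site, an AP-1 site and a TATA box are known to act in the proximal promoter, and capitals mark these letters in the rat window, which are GATAA read on either strand, TGACTAA and TATAAA.
Edn1: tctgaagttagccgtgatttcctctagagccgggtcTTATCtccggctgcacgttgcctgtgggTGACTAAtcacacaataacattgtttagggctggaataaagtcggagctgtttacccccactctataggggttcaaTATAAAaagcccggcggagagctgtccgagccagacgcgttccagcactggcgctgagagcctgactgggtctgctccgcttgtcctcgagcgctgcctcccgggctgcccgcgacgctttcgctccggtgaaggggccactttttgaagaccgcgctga
The letters GATAA were found on the opposite strand, where they read TTATC above, and the other 2 motifs on the strand shown. None of the 3 motifs overlapped another. Counted from the annotated start, GATAA lay at −214, TGACTAA at −186 and TATAAA at −110. Whether they are the sites known in the human gene was not tested. Of 33469 promoter windows of the same length, 26.5% held GATAA, 2.34% held TGACTAA and 14.2% held TATAAA, on either strand. A window was found for 25 of the 39 genes, of which 6 held GATAA, 2 held TGACTAA (Edn1 and Sele) and 5 held TATAAA. The ETS-type letters ACAGGAA were in 3 of the 25 windows (Tjp1, Emcn and Nos3), beside 8.49% of all windows, CCGGAAGT was in 0 beside 3.81%, and the CArG box of smooth muscle genes was in 0 beside 1.64%. Also searched were CCAAT, in 4 of the 25 windows beside 37.5%, and TGACTCA, in 1 beside 4.63%. These matches are letters in a window, and no binding was measured.

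Pdgfrb, the receptor through which pericytes sense platelet-derived growth factor B, was lower as well. Its signal was 7.64, 7.56 and 7.10 on the HCDDP arrays and 8.27, 7.77 and 8.09 on the diabetic arrays. The groups did not overlap, and the lowest diabetic array, number 2, lay just above the highest HCDDP array, number 1. The mean was 7.43 ± 0.30 (SD, n = 3) against 8.04 ± 0.25 (SD, n = 3). The difference was −0.61 with a standard error of 0.21 and a 95% interval from −1.10 to −0.12, a 1.53-fold lower signal (adjusted p = 0.782 from limma). The call was lost without HCDDP array 3 (−0.44), without diabetic array 1 (−0.50), without both arrays numbered 3 (−0.42), with array weights (−0.42), after quantile normalization (−0.53) and after median centring (−0.58), and the methods' t-test gave an unadjusted p of 0.0524. Pdgfrb is also expressed by fibroblasts, and the 6 markers of corneal and scleral fibroblasts went both ways. Kera, a proteoglycan of the cornea, was called lower at −1.10 (adjusted p = 0.782 from limma), Dcn, which encodes decorin, had −0.45 without overlap, Lum, which encodes lumican, had −0.31 and Col1a2 had −0.03, while the collagen genes Col1a1 and Col3a1 had 0.12 and 0.45. Of the epithelial markers Krt12 and Aldh3a1 had −0.06 and −0.09 and Krt14 had 0.73. The summed signal of these 9 markers was 14.05 to 14.32 in the HCDDP group and 14.26 to 14.36 in the diabetic group, and its part in the result was not tested.

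**Figure D3:**
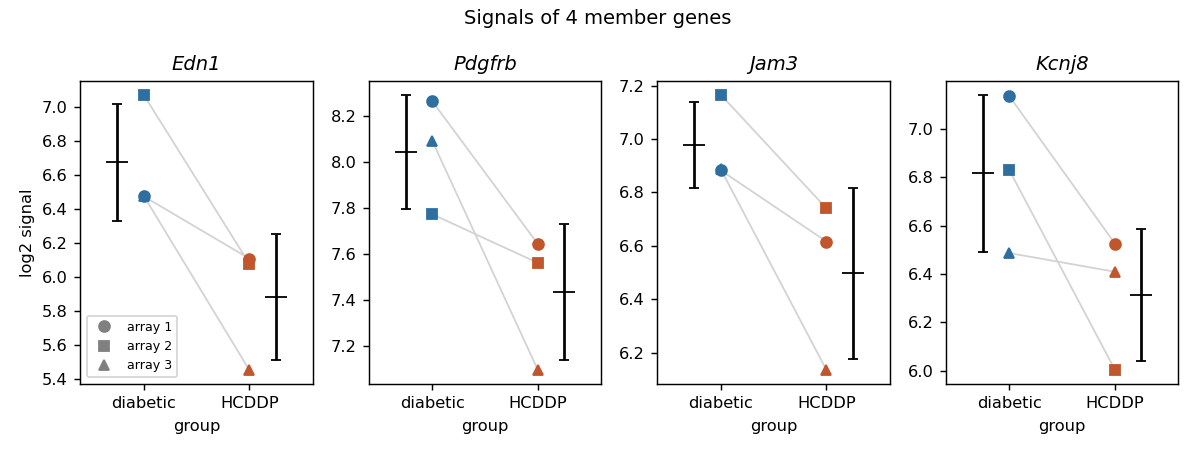
Log2 signals (vertical axis, a separate scale for each gene) of Edn1, Pdgfrb, Jam3 and Kcnj8 in the diabetic and HCDDP groups. Shapes give the array number, grey lines join arrays of the same number, and the black bars are the mean and SD of 3 arrays. Diabetic arrays 1 and 3 lie on each other for Edn1, at 6.48, and almost so for Jam3, at 6.88 and 6.89.

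The other vascular signals and receptors did not pass the threshold. Pdgfb, the ligand of Pdgfrb, had a mean of 6.13 ± 0.41 (SD, n = 3) with HCDDP against 6.01 ± 0.11 (SD, n = 3) without, a difference of 0.12 with an interval from −0.39 to 0.64. Nos3, the endothelial nitric oxide synthase, had a difference of 0.17 (interval −0.22 to 0.56), opposite in sign to Edn1. Angpt1, the angiopoietin that activates the receptor Tek, had −0.16 (interval −0.71 to 0.39). Angpt2, which mostly opposes it and loosens the wall, had −0.19 (interval −0.55 to 0.18). Angpt2 was lower in the HCDDP array of each pair, by 0.15, 0.18 and 0.22. The receptor genes of endothelin, Ednra and Ednrb, were not analysed here. In this role 2 of 6 genes were called lower, or 33.3% beside 2.28% of all genes, with a median difference of −0.17. Pdgfrb was placed in this role, with its ligand, and not with the pericyte genes.

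Among the junction and adhesion proteins of the endothelial wall, 0 of 7 genes passed the threshold, with a median difference of −0.19, and 5 of the 7 had a lower mean in the HCDDP group. Which cells of the mixed RNA gave the signals of these 7 genes was not tested. The medians of the 9 marker lists in the same RNA ran from −0.26 for photoreceptors to 0.19 for erythroid cells. Pigment epithelium and choroidal melanocytes had −0.23, lymphatic endothelium −0.23, lens −0.15 and Muller glia and astrocytes −0.11. The list of cornea and sclera had −0.06, leukocytes and microglia −0.01 and skeletal muscle 0.10. The part of these tissues in the junction genes was not tested. Jam3, a junctional adhesion molecule, came nearest. Its signal was 6.62, 6.74 and 6.14 on the HCDDP arrays and 6.88, 7.17 and 6.89 on the diabetic arrays. The groups did not overlap, and HCDDP array 3 was the lowest of the 6. The difference of −0.48 (standard error 0.20, interval −0.95 to −0.01, adjusted p = 0.782 from limma) was short of the fold change, and it passed only without HCDDP array 2, at −0.60.

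Cdh5, which encodes VE-cadherin, the adhesion protein of the endothelial adherens junction, had a mean of 6.93 ± 0.34 (SD, n = 3) against 7.26 ± 0.30 (SD, n = 3). It was lower in the HCDDP array of each pair, by 0.25, 0.40 and 0.36, and its difference of −0.34 had an unadjusted p of 0.179 by limma and of 0.0442 with the pairs as a block. Cldn5, the main claudin of the barrier's tight junctions, had the opposite sign, with 6.60 ± 0.08 (SD, n = 3) against 6.46 ± 0.11 (SD, n = 3) and a difference of 0.14 (interval −0.22 to 0.49). Tjp1, the scaffold protein ZO-1 of tight junctions, had signals of 9.91, 10.08 and 9.99 in the HCDDP arrays and 10.17, 10.48 and 9.91 in the diabetic arrays. Diabetic array 3 lay at the level of HCDDP array 1 and the other diabetic arrays above all 3 HCDDP arrays, and the difference was −0.19 (interval −0.62 to 0.24). Ocln, the tight junction protein occludin, had −0.22 (interval −0.66 to 0.22), Esam, an adhesion molecule of endothelial cells, had −0.18 (interval −0.56 to 0.20), and Icam2, which is present on resting endothelium, had 0.08 (interval −0.41 to 0.57).

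None of the 7 endothelial receptors, surface and secreted proteins tested passed the threshold, and their median difference was 0.02. Tek, the receptor of the angiopoietins, had 6.99 ± 0.28 (SD, n = 3) with HCDDP against 6.76 ± 0.36 (SD, n = 3) without, a difference of 0.23 (interval −0.30 to 0.76). Its HCDDP array was the higher one in each pair, by 0.16, 0.15 and 0.37. Tie1, its partner receptor, had 0.02 (interval −0.63 to 0.67). Robo4, a guidance receptor of endothelial cells, had the highest difference of the 33 genes, 0.25 (interval −0.18 to 0.68), and its groups overlapped. Vwf, the clotting protein von Willebrand factor, had 0.04 (interval −0.36 to 0.45), and Emcn, the sialoglycoprotein endomucin, had −0.04 (interval −0.49 to 0.42).

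Cav1 and Plvap belong to the vesicles and openings through which endothelium lets material pass. Cav1, the coat protein of caveolae, had signals of 9.39, 9.49 and 9.09 in the HCDDP arrays and 9.62, 9.48 and 9.09 in the diabetic arrays, and the arrays numbered 3 were the lowest of both groups. The difference was −0.07 (interval −0.53 to 0.39). Plvap, the protein of the diaphragms of fenestrae and caveolae, is a marker of leaky endothelium such as that of the choroid. Its signal was 6.75 ± 0.03 (SD, n = 3) against 6.97 ± 0.39 (SD, n = 3), and diabetic array 1 stood at 7.42 with the other 5 arrays at 6.72 to 6.79. Without that array the difference moved from −0.22 to 0.01.

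The 4 leukocyte adhesion molecules all had a slightly lower mean in the HCDDP group, and 0 of 4 passed the threshold. Icam1, the ligand of leukocyte integrins that is induced on inflamed endothelium, had 7.06 ± 0.19 (SD, n = 3) against 7.14 ± 0.18 (SD, n = 3), a difference of −0.09 (interval −0.50 to 0.32). Vcam1, another such ligand, had −0.21 (interval −0.60 to 0.18). For Sele and Selp, the selectins on which leukocytes roll, the differences were −0.08 and −0.04, and the signals ran from 4.42 to 5.11 and from 4.34 to 5.26 over the 6 arrays. The deposited values carry no detection call, so whether signals of this size lay above background is not known. Of 17 leukocyte and microglial markers, Cx3cr1, a chemokine receptor of microglia, was called higher in the HCDDP group, at 0.65 (adjusted p = 0.782 from limma), and 0 were called lower. The median over the 17 was −0.01, and 9 had a lower mean and 8 a higher one. Of those that macrophages or microglia express, Lyz2 had −0.55, Cd68 −0.46, Csf1r −0.25, Aif1 −0.12 and P2ry12 −0.08. C1qa and Cd74 went the other way, like Cx3cr1, at 0.10 and 0.05. S100a8 of neutrophils had 7.79 in HCDDP array 1 with 3.92 and 4.22 on the other HCDDP arrays and 3.53 to 3.83 on the diabetic arrays. Its groups did not overlap, and it was not called. S100a9 and Mpo of the same list had 0.82 and 0.20, with overlap, and Ptprc, which marks leukocytes in general, had −0.12. The summed signal of these markers was 10.68 to 11.66 with HCDDP and 10.77 to 11.47 without, and its part in the adhesion genes was not tested.

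Among the pericyte and smooth muscle genes, 0 of 6 passed the threshold and 3 of the 6 had a lower mean, with a median difference of −0.02. Kcnj8 came nearest and is given by array because of its value. It encodes the pore of the ATP-sensitive potassium channel of mural cells. Its signal was 6.53, 6.002 and 6.41 in the HCDDP arrays and 7.14, 6.83 and 6.49 in the diabetic arrays, so that diabetic array 3 overlapped the HCDDP group. The difference was −0.51 (interval −1.02 to 0.01, unadjusted p = 0.0525 by limma and 0.0307 with the pairs as a block). It passed the threshold without HCDDP array 1 (−0.61), with array weights (−0.66), without diabetic array 3 (−0.67) and with both arrays numbered 3 left out (−0.72). Abcc9, the regulatory subunit of the same channel, had 0.05 (interval −0.51 to 0.61).

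Rgs5, a regulator of G protein signalling that marks pericytes, had signals of 8.49, 8.29 and 8.24 in the HCDDP arrays and 8.80, 9.04 and 8.15 in the diabetic arrays. Diabetic array 3 was the lowest of all 6 and the other 2 diabetic arrays were the highest, and the difference was −0.33 (interval −0.88 to 0.23). Without diabetic array 3 it was −0.58. Tagln, a protein of the smooth muscle cytoskeleton, had 9.62, 9.12 and 9.09 in the HCDDP arrays and 9.69, 9.16 and 9.24 in the diabetic arrays. The HCDDP array was lower in each pair, by 0.07, 0.04 and 0.14, and array 1 was the highest in both groups. Cspg4, the proteoglycan NG2 of pericytes, had a difference of 0.06 (interval −0.37 to 0.49), and Mcam, an adhesion molecule of vessel walls, had 0.16 (interval −0.44 to 0.75). Pdgfrb, Kcnj8, Rgs5 and Tagln thus had a lower mean in the HCDDP group, and Cspg4, Mcam and Abcc9 a higher one. The interval held 0 for each of these genes except Pdgfrb, and the differences between them were not tested.

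The 3 transporters of the barrier did not pass the threshold. Slco1c1, which carries thyroid hormone, had 7.09 ± 0.05 (SD, n = 3) against 7.09 ± 0.31 (SD, n = 3), a difference of 0.01 (interval −0.43 to 0.45). Mfsd2a carries lysolipids with docosahexaenoic acid and holds down vesicle transport in the barrier. It had the widest spread of the 33 genes, with 5.71 ± 0.59 (SD, n = 3) against 5.89 ± 0.48 (SD, n = 3), and array 1 was the highest in both groups. The efflux pump gene Abcb1a had 0.10 (interval −0.34 to 0.55).

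For 12 of the 33 genes the 95% interval lay within a fold change of 1.5 in both directions. These were Cldn5, Esam, Icam2, Vwf, Emcn, Cav1, Icam1, Angpt2, Nos3, Cspg4, Slco1c1 and Abcb1a. A fold change of 2 lay outside the interval for 30 genes, the exceptions being Edn1, Pdgfrb and Kcnj8.

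No overlap between the groups was seen for 3 genes, all lower in the HCDDP group, Edn1, Pdgfrb and Jam3. The exact two-sided permutation test gave each a p of 0.10, and with 3 arrays a group it cannot give less. They are 9.09% of the genes, beside 4.3% of all genes that were lower without overlap, and 0 were higher, beside 6.43%. The HCDDP array was lower in each of the 3 pairs of the same number for 11 of the 33 genes, or 33.3%, beside 19.6% of all genes. These were Cdh5, Esam, Ocln, Jam3, Icam1, Vcam1, Angpt2, Edn1, Pdgfrb, Tagln and Kcnj8. It was higher in each pair for 3 genes, Cldn5, Tek and Nos3, or 9.09% beside 17.6%. With the pairs as a block, Edn1 and Pdgfrb were the 2 genes past the threshold, both lower, beside 3.47% of all genes lower past it. An unadjusted p under 0.05 by limma was found in that fit for 5 genes (these 2, Jam3, Kcnj8 and Cdh5), or 15.2%. The share of all genes under that p alone was not counted with the block, so the 5 genes cannot be read against it.

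**Figure D4:**
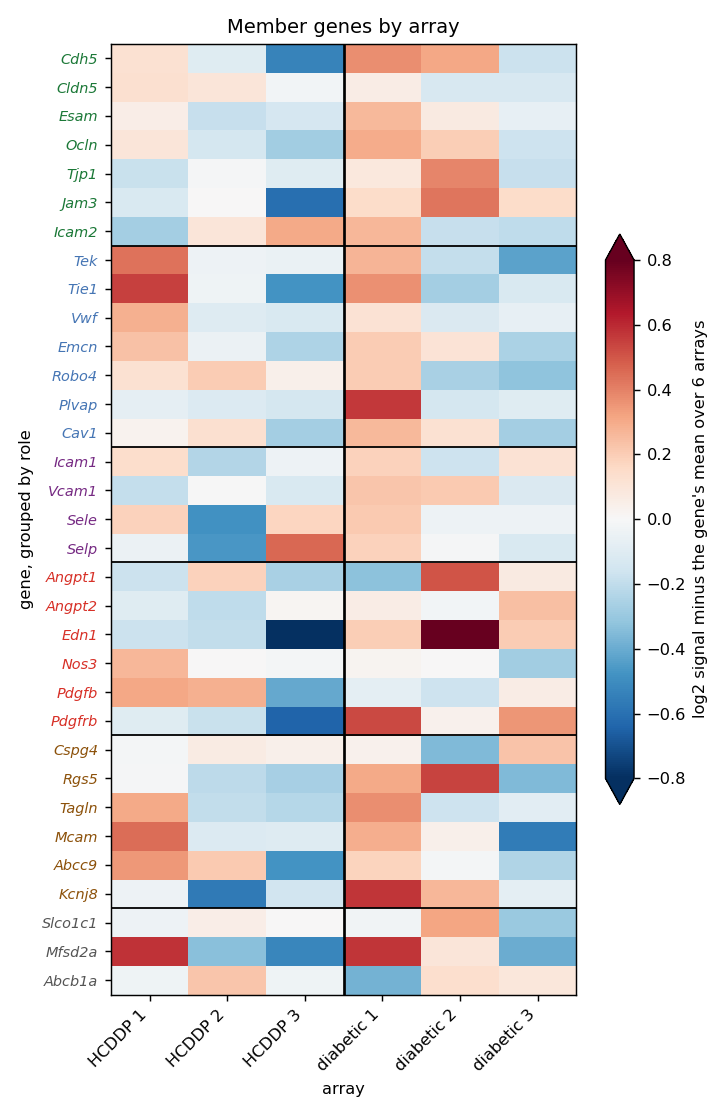
Signal of each of the 33 genes (rows, coloured by role as in the plot of differences) on each of the 6 arrays (columns), as the log2 signal minus the mean of the gene over the 6 arrays. The colour scale ends at 0.8 to each side. The columns of array 1 are redder and those of array 3 bluer in both groups.

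The genes also varied together by array number. Diabetic array 1 held the highest signal of 11 genes and HCDDP array 1 that of 10, while HCDDP array 3 held the lowest of 12 and diabetic array 3 that of 9. The median deviation from the mean of a gene was 0.21 in diabetic array 1, 0.05 in HCDDP array 1, 0.03 in diabetic array 2, −0.05 in HCDDP array 2, −0.12 in diabetic array 3 and −0.14 in HCDDP array 3. Over all genes it ran from −0.06 to 0.04. The median deviation of the 6 skeletal muscle markers was 0.24 and 0.22 in HCDDP and diabetic array 1 and −0.27 in both arrays numbered 3, and the part of muscle in the order of the arrays was not tested.

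**Figure D5:**
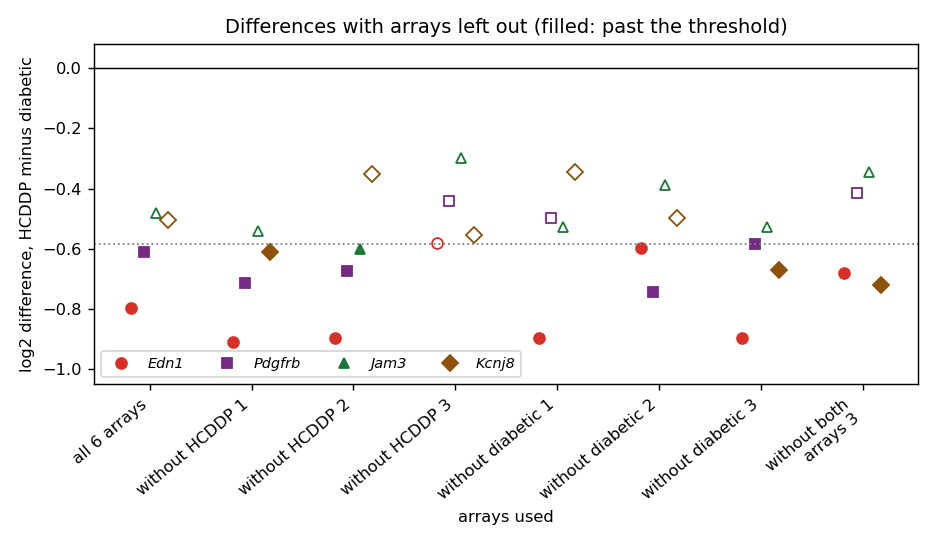
Log2 difference, HCDDP minus diabetic (vertical axis), of Edn1, Pdgfrb, Jam3 and Kcnj8 with all 6 arrays, without each array in turn and without both arrays numbered 3. Filled points passed the threshold, whose fold change of 1.5 the dotted line marks. Edn1 ran from −0.58 to −0.91 and Pdgfrb from −0.42 to −0.75.

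Beyond the 33 genes, 126 tested genes of 5 wider lists gave 1 gene higher, Egfl7, and 4 genes lower, Fzd4, Myl9, Pdgfa and Cd99l2. These were 0.794% and 3.17% of the lists, beside 0.925% and 2.28% of all genes, and limma's adjusted p was 0.782 for each of the 5. The median difference over these genes was −0.04. Without overlap between the groups were 7 genes higher and 6 lower, or 10.3% of the lists beside 10.7% of all genes. Myl9 and Pdgfa lost the call when HCDDP array 2, HCDDP array 3, diabetic array 1 or diabetic array 2 was left out, at −0.55 to −0.46 and −0.64 to −0.48, and Cd99l2 without any of these arrays or HCDDP array 1, at −0.94 to −0.59. Myl9 also lost it after quantile normalization (−0.52) and median centring (−0.57), and by the methods' t-test Fzd4, Myl9, Pdgfa and Cd99l2 were not called.

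Of 37 other endothelial genes, 1 was higher and 0 were lower. Egfl7, a secreted protein of endothelial cells, had signals of 6.42, 6.59 and 6.54 in the HCDDP arrays and 6.07, 5.70 and 5.91 in the diabetic arrays. The groups did not overlap, and the difference was 0.62 with a standard error of 0.17. It fell short without diabetic array 2 (0.53). The study named Egfl7 from the same arrays, so its direction is not independent evidence. Erg, a transcription factor that keeps endothelial genes on, went the other way without overlap, at 6.25 ± 0.09 (SD, n = 3) against 6.81 ± 0.27 (SD, n = 3). Its difference of −0.56 was short of the fold change. Sox18, a transcription factor of endothelial cells, had 0.38, and Mmrn2, an endothelial matrix protein, had 0.28.

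Of 27 other barrier genes, 0 were higher and 1 was lower. Fzd4 is the receptor of norrin, the signal that builds and maintains the retinal barrier. Its signal was 7.53, 7.13 and 6.40 in the HCDDP arrays and 8.25, 8.68 and 7.29 in the diabetic arrays. Diabetic array 3 lay below HCDDP array 1, and the difference was −1.06 with a standard error of 0.39. The call was lost without HCDDP array 2 (−1.11), HCDDP array 3 (−0.74), diabetic array 1 (−0.97) or diabetic array 2 (−0.75), although the sign stayed. The claudin gene Cldn3 had −0.66 without overlap and an unadjusted p of 0.0503 by limma, and it passed the threshold with the pairs as a block (unadjusted p = 0.0178). Slco1a4, a carrier of organic anions, had −0.48, and Cgn, the tight junction protein cingulin, had 0.43, both without overlap.

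Among 25 other pericyte and smooth muscle genes 1 was lower, Myl9, a regulatory light chain of smooth muscle myosin, at −0.61 (standard error 0.26). Ebf1, a transcription factor found in pericytes, had −0.58 and Anpep, an aminopeptidase of pericytes and many other cells, had −0.80, but their groups overlapped and neither was called, although Anpep passed with the pairs as a block (unadjusted p = 0.00218 by limma). Foxc1, a transcription factor of mural cells, had 0.43. Among 23 partners of the angiopoietin, endothelin, nitric oxide and platelet-derived growth factor pathways 1 was lower. This was Pdgfa, the other classical chain of the growth factor, at −0.66 (standard error 0.27). Edn3, a second endothelin, was at 7.81 ± 0.17 (SD, n = 3) against 8.22 ± 0.26 (SD, n = 3), without overlap and with a difference of −0.41 that was short of the fold change. Ass1, which supplies arginine for nitric oxide, had −0.49, and Pdgfd, another ligand of Pdgfrb, had −0.31 without overlap.

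Among 14 partners of leukocyte adhesion 1 was lower, Cd99l2, at −0.85 (standard error 0.37), and its diabetic array 3 lay within the HCDDP arrays. Cd47, Itgb1 and Cd44, which leukocytes and many other cells carry, had −0.32, 0.22 and −0.25. Of 5 lymphatic markers 4 had a lower mean, and 1 was called. This was Lyve1, which some macrophages express too, at −0.64 without overlap (adjusted p = 0.782 from limma). Pdpn had −0.35 without overlap, Prox1, which lymphatic endothelium shares with retinal neurons, had −0.23, Reln had −0.0009 and Ccl21 had 0.32.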

How the data were processed

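RNA of 6 arrays was measured, 3 of the HCDDP group and 3 of the diabetic group, grouped by their labels, and the dose came from the study's methods. Expression Console Software was used by the authors on the array scans, and what they deposited is a table with 1 log2 signal per array for 36685 probe rows. Labels and methods do not state how the deposited log2 signals were summarised and normalized. No deposited column of these arrays was left out of use. Gene names came from a platform annotation, updated by gene identifier where RefSeq's list of the GRCr8 assembly held it (18394 rows). Rows named for several genes (575) or for none (17599) were not used. For a gene with several rows the brightest on average was taken. No member had more than 1 row.

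The groups were compared with limma 3.58.1 in R 4.3.3 on all 18166 genes, with Benjamini-Hochberg adjustment. The scripts were tested on simulated data. Array weights used statmod 1.5.0. Arrays give no counts, so their number limits the precision. Neither labels nor paper pair the arrays, but deviations from the group means correlated across genes at 0.274, 0.292 and 0.445 for the same numbers and at 0.0643 or less for the other pairs, so the numbers were treated as pairs in an alternative.

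The member genes, the wider lists, the marker lists and the tests were chosen with earlier results of these data known. All members are named. Values by array are given for members past the threshold, without overlap or above the 90th percentile of the mean signal, and for Kcnj8, Egfl7 and Fzd4, which, like the array ranges of other genes and the markers named, were chosen after their values were seen. Of each wider list the 4 genes with the smallest p are named. The motifs marked in the Edn1 window were chosen after Edn1 was known to differ. Alternatives were the methods' t-test, trend and robust moderation, the replicate block, array weights, median centring, quantile normalization, the mean of a gene's rows, only genes above the median signal, a fold change over 2, each array left out and both arrays numbered 3 left out, and were not run for single marker genes. Figures used matplotlib 3.10.9 in Python 3.11.15.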

Additional observations from a re-analysis of the deposited data

How the results depend on the processing

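Edn1 and Pdgfrb kept their lower sign under all 16 alternatives, with Edn1 past the threshold in 13 and Pdgfrb in 8, and the adjusted p from limma or the methods' t-test ran from 0.107 to 1 and from 0.246 to 1. The number of members called lower, 2 with all arrays, was 0 by the methods' t-test and with a fold change over 2, beside 0.595% and 0.418% of all genes. It was 1 (Edn1) after quantile normalization or median centring, beside 2.1% and 2.12%. With single arrays left out it was 0 to 3, being 0 without HCDDP array 3 (1.02% of all genes) and 1 without diabetic array 1 (1.18%). It was 3 without HCDDP array 1 (2.5%), HCDDP array 2 (1.78%) or diabetic array 3 (8.21%). With array weights and without both arrays numbered 3 the 2 genes were Edn1 and Kcnj8, beside 5.85% and 6.19% of all genes. The number was 2 with the replicate block, which changed no call of a member but added Cldn3 and Anpep of the wider lists, and no member was higher under any alternative. The members without overlap were 3 with all arrays, or 9.09% beside 10.7% of all genes in either direction. They were 7 after median centring, 4 to 10 with single arrays left out and 15 without both arrays numbered 3, and fewer arrays make overlap rarer. The share of all genes without overlap was not counted under these alternatives, so the 7, the 4 to 10 and the 15 cannot be read against it. All genes past the threshold, 582 in the main comparison, were 196 by the methods' t-test, 1362 with array weights, 381 among genes above the median signal, 1482 without both arrays numbered 3, 90 with a fold change over 2 and 323 to 1984 with single arrays left out, being highest without diabetic array 3. Genes of the wider lists past it, 5 in the main comparison, were 1 by the methods' t-test, 9 with array weights, 10 without both arrays numbered 3, 1 with a fold change over 2 and 1 to 17 with single arrays left out. The median difference of the members, −0.08, ran from −0.17 to 0.01, the upper value without diabetic array 1. The cause of these changes was not tested.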
